A study of Mus musculus with 12 samples.

Results

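Myeloid C-type lectins are cell-surface receptors of macrophages, monocytes, neutrophils and dendritic cells. The 8 genes followed here are Clec4a1, Clec4a2, Clec4a3, Clec4d, Clec4e, Clec4n, Clec5a and Clec12a, found by their symbols in the annotated expression table. They are 8 of 49585 genes with a row, and 8 of 8 passed the low-count filter that left 18451 genes for testing. Their levels were followed in nuclear RNA of mouse spinal cord after injury, in 3 libraries each from injured C57BL/6 mice at 3, 7 and 14 days and 3 from sham-operated C57BL/6 mice. Sham cords are labelled as day 7 material. Cord tissue around the lesion from 3 animals was pooled for each library, so p-values measure the spread between pools and not between single animals. Nuclei were captured through GFP and are described as microglia-specific, and the labels do not name the gene or cell type that drives GFP.

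The receptors of this family recognise sugars, glycolipids and products of dying cells or microbes. They fall into an activating and an inhibitory class. Clec4e (Mincle), Clec4d (MCL) and Clec4n (Dectin-2) signal through the FcRgamma chain, encoded by Fcer1g, to the kinase Syk and the adaptor Card9, a route that ends in NF-kB and cytokine genes. Clec5a (MDL-1) signals through the adaptor DAP12, encoded by Tyrobp. Clec4a2 (a dendritic cell immunoreceptor, DCIR) and Clec12a (MICL) carry an inhibitory ITIM motif that recruits the phosphatases encoded by Ptpn6 and Ptpn11. Clec4a1 and Clec4a3 are close relatives of Clec4a2 in the mouse DCIR group.

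All 8 genes lie on chromosome 6 of GRCm38. The 6 Clec4 genes share a cluster of 368 kb at chr6:122921848-123289870, which holds 13 annotated genes. Clec5a lies apart at chr6:40574894-40585821 on the minus strand, and Clec12a at chr6:129342691-129365303 on the plus strand. Clec4d at chr6:123262111-123275265 (plus strand) and Clec4e at chr6:123281789-123289870 (minus strand) are neighbours at the end of the cluster. The bases before the start sites are shown for the 4 genes with the largest fold changes at 3 days, a pair above sham and a pair below it. Each run is the 250 bases upstream of a RefSeq start site in GRCm38.p6, 5′ to 3′ on the strand of the gene, for Clec4e chr6:123289872-123290121 (minus strand), for Clec4d chr6:123261857-123262106 (plus strand), for Clec4a2 chr6:123122440-123122689 (plus strand) and for the second of the annotated Clec4a3 start sites chr6:122952394-122952643 (plus strand). Capitals mark matches on either strand to the searched letters.
Clec4e: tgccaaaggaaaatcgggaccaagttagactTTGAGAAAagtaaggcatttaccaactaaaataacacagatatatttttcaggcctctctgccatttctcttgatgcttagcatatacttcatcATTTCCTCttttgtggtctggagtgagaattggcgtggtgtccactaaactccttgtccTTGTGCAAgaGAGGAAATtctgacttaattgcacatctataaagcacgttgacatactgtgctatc
Clec4d: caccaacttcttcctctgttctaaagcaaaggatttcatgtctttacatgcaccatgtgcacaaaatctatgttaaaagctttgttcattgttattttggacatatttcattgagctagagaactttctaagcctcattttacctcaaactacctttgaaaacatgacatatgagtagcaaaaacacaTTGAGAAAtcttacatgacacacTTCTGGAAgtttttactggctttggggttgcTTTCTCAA
Clec4a2: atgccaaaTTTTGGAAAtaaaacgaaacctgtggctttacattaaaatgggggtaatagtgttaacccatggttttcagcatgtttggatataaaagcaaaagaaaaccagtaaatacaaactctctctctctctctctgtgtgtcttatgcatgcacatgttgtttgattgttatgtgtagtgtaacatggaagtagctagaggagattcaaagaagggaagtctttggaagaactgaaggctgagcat
Clec4a3: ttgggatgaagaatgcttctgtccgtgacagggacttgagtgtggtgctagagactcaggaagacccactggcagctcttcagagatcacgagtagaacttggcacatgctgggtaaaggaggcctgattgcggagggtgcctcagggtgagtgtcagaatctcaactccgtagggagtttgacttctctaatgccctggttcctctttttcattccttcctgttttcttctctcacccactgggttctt
The letters searched were GAGGAANT for PU.1, TTNNGNAA for C/EBP, TGANTCA for AP-1, GGGANTTTC for NF-kB and GAAANNGAA for IRF, on both strands, in windows of 300 bases that run on 50 bases past the start. Clec4e held PU.1 matches beginning 125 and 56 bases before the start site and C/EBP matches beginning 219 and 66 bases before it. Clec4d held C/EBP matches beginning 62, 39 and 8 bases before its start site, and an IRF match just past the start site, outside the printed bases. Clec4a2 held 2 overlapping C/EBP matches, beginning 242 and 241 bases before the start site, and an AP-1 match 31 bases after it. Neither annotated start site of Clec4a3 had a match. Among 32817 RefSeq promoters of the same length, 7.44% held the PU.1 letters, 40.7% the C/EBP letters, 7.81% the AP-1 letters, 8.55% the IRF letters and 1.11% the NF-kB letters, and these matches are descriptions of sequence only.

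Total counts ran from 4003480 to 10670804 per library, so 3 counts, the limit that a count of 0 allows, stand for 0.288 to 0.840 CPM. The 10 microglial markers were all detected in every library, with summed levels of 3328 to 6392 CPM. Sham replicate 4 stood apart: its astrocyte markers summed to 5298 CPM, against 639 and 1532 CPM in the other sham libraries, and its border-associated macrophage markers to 872 CPM, against 503 and 398 CPM. This library also had the highest sham level of 6 of the 8 lectin genes. Among the 7-day libraries, replicate 3 was highest for 6 of the 8. For the 8 lectin genes, results that rest on sham replicate 4 are therefore also given without it. Fold changes and calls of other named genes and of marker lists are given only with it.

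Levels of different genes were compared per length, as RPKM, in which the deposited gene lengths equal the union of annotated exons for all 8 genes. In sham, Clec4a2 (18.0 ± 8.63 RPKM, SD, n = 3 here and below), Clec4a3 (16.2 ± 1.73 RPKM) and Clec5a (15.6 ± 2.01 RPKM) led with overlapping libraries. Without sham replicate 4 (27.7 RPKM for Clec4a2), Clec4a3 led at 17.0 RPKM, before Clec5a at 14.8 RPKM and Clec4a2 at 13.2 RPKM (means of 2 libraries). Clec4a1 followed apart at 8.84 ± 1.72 RPKM. Clec12a (3.40 ± 2.00 RPKM), Clec4n (1.32 ± 0.896 RPKM) and Clec4d (1.16 ± 0.676 RPKM) overlapped as neighbours, and Clec4e was last and apart at 0.116 ± 0.104 RPKM.

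At 3 days Clec5a stood first and apart at 13.6 ± 1.28 RPKM, and every pair of neighbours after it overlapped, from Clec4a3 (6.74 ± 2.33 RPKM), Clec4a2 (5.01 ± 1.04 RPKM), Clec4a1 (4.75 ± 2.04 RPKM) and Clec4d (4.00 ± 1.08 RPKM) down to Clec4e (1.11 ± 0.443 RPKM). The summed RPKM of the 8 genes was 34.9 to 42.7 at 3 days, against 53.1 to 79.7 in sham. Clec4a2 made up 12.6% of that sum at 3 days and 26.9% in sham, and Clec4d 9.96% at 3 days and 1.70% in sham. Without sham replicate 4 the sham shares were 23.0% for Clec4a2 and 1.38% for Clec4d.

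At 7 days the leading genes overlapped again, with Clec5a at 16.4 ± 3.84 RPKM, Clec4a3 at 10.8 ± 3.90 RPKM, Clec4a2 at 9.04 ± 2.41 RPKM and Clec4a1 at 7.82 ± 1.20 RPKM. At 14 days the first 4 genes stood apart from each other, Clec5a at 18.3 ± 1.35 RPKM, Clec4a3 at 14.5 ± 2.00 RPKM, Clec4a2 at 7.51 ± 1.24 RPKM and Clec4a1 at 3.95 ± 1.65 RPKM. Clec4e was last at every time, at 0.499 ± 0.222 RPKM at 7 days and 0.129 ± 0.0742 RPKM at 14 days. Clec5a was thus the member with the highest mean level per length at each time after injury.

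**Figure D1:**
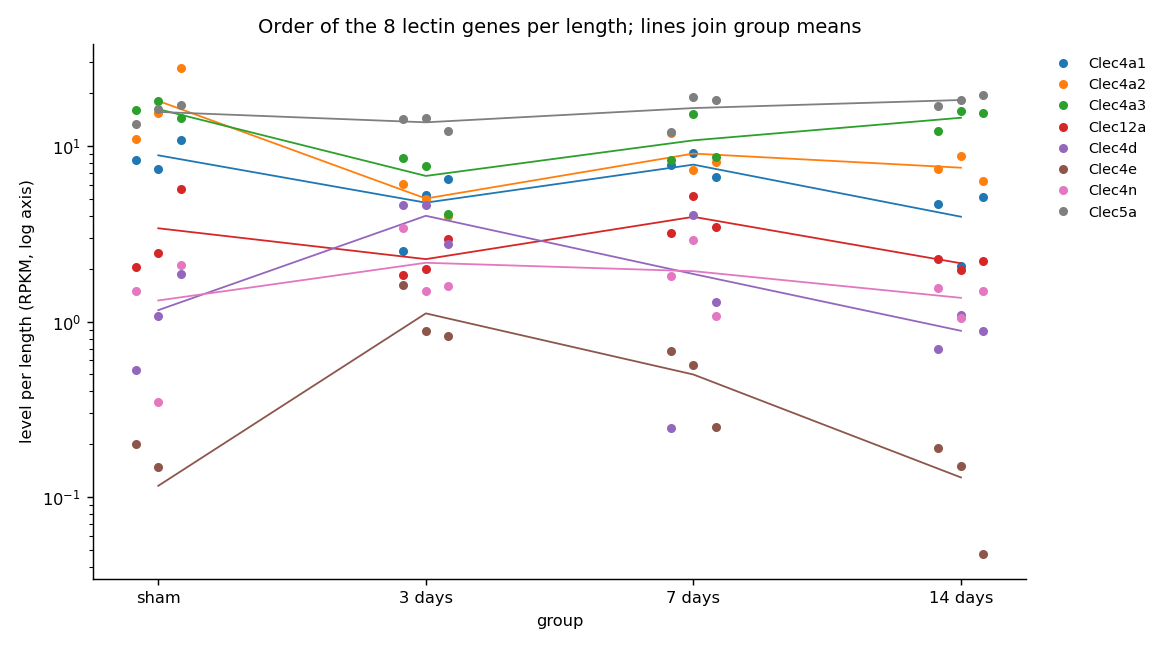
Level per length of the 8 lectin genes in each library (points, RPKM on a log axis) and group means (lines), from sham to 14 days. Clec5a stays between 13.6 and 18.3 RPKM on average, while Clec4a2 lies at 5.01 RPKM at 3 days and 18.0 RPKM in sham. The sham library with no Clec4e read has no point on the log axis.

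Of the 3 FcRgamma-coupled receptors, Clec4e had the largest log2 fold change of any member at 3 days against sham. Clec4e, the Mincle receptor for mycobacterial glycolipid and for a nuclear protein released by dying cells, had 1.06, 0.69 and 0 CPM in sham replicates 2, 3 and 4, then 7.97, 4.40 and 4.23 CPM at 3 days, 3.56, 2.99 and 1.20 CPM at 7 days, and 0.90, 0.70 and 0.22 CPM at 14 days. Every 3-day and every 7-day library exceeded every sham library, and the 14-day libraries overlapped sham. These levels rest on few reads: 35, 29 and 44 counts at 3 days, against 7, 3 and 0 counts in sham. Clec4e rose 8.18-fold at 3 days against sham (log2 fold change 3.03 ± 0.70 SE, adjusted p = 0.00741, from edgeR's quasi-likelihood F-test with p adjusted by Benjamini-Hochberg, BH, across the 18451 genes). At 7 days the log2 difference from sham was 1.93 ± 0.72 and did not pass the test (edgeR BH-adjusted p = 0.102), and at 14 days it was -0.03 ± 0.81. Clec4e then fell: its log2 fold change at 14 days against 3 days was -3.07 ± 0.69 (edgeR BH-adjusted p = 0.0151).

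The call for 14 against 3 days rested on single libraries. The edgeR BH-adjusted p became 0.0614 when 3-day replicate 1 was left out, and 0.0608, 0.0698 and 0.0919 when 14-day replicates 1, 2 and 3 were. The rise at 3 days passed in 19 of the 19 alternative fits that tested Clec4e, with log2 fold changes of 2.55 to 3.77 when each library was left out in turn.

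Clec4d, the partner of Mincle known as MCL, had 0.91, 1.60 and 3.36 CPM in sham, 7.29, 7.43 and 4.52 CPM at 3 days, 0.42, 6.87 and 2.01 CPM at 7 days, and 1.05, 1.64 and 1.34 CPM at 14 days. All 3-day libraries lay above all sham libraries, and 7-day replicate 3 lay at the 3-day level while the other 7-day libraries did not. The log2 difference of Clec4d at 3 days against sham was 1.76 ± 0.70, which did not pass the test (edgeR BH-adjusted p = 0.0879). It passed in 4 alternative fits: without sham replicate 4 (2.34, edgeR BH-adjusted p = 0.0416), with no low-count filter (edgeR BH-adjusted p = 0.0151), and without 7-day replicate 1 (edgeR BH-adjusted p = 0.0423) or replicate 3 (edgeR BH-adjusted p = 0.0442). The log2 difference at 14 days against 3 days was -2.25 ± 0.72, with no overlap between the libraries, and also did not pass (edgeR BH-adjusted p = 0.0713), whereas DESeq2 called it (adjusted p = 0.0277), as did 6 alternative edgeR fits (BH-adjusted p of 0.0014 to 0.0494).

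Clec4n, the Dectin-2 receptor for fungal mannans, had 2.27, 0.46 and 3.36 CPM in sham, 4.78, 2.12 and 2.31 CPM at 3 days, 2.72, 4.40 and 1.47 CPM at 7 days, and 2.11, 1.40 and 2.00 CPM at 14 days. The 4 groups overlapped, apart from the 3-day libraries lying above the 14-day libraries by a narrow margin. The test of any difference between groups gave an edgeR BH-adjusted p of 0.681 for Clec4n. Its counts were between 2 and 25 per library, and the log2 difference at 3 days against sham was 0.57 ± 0.62.

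**Figure D2:**
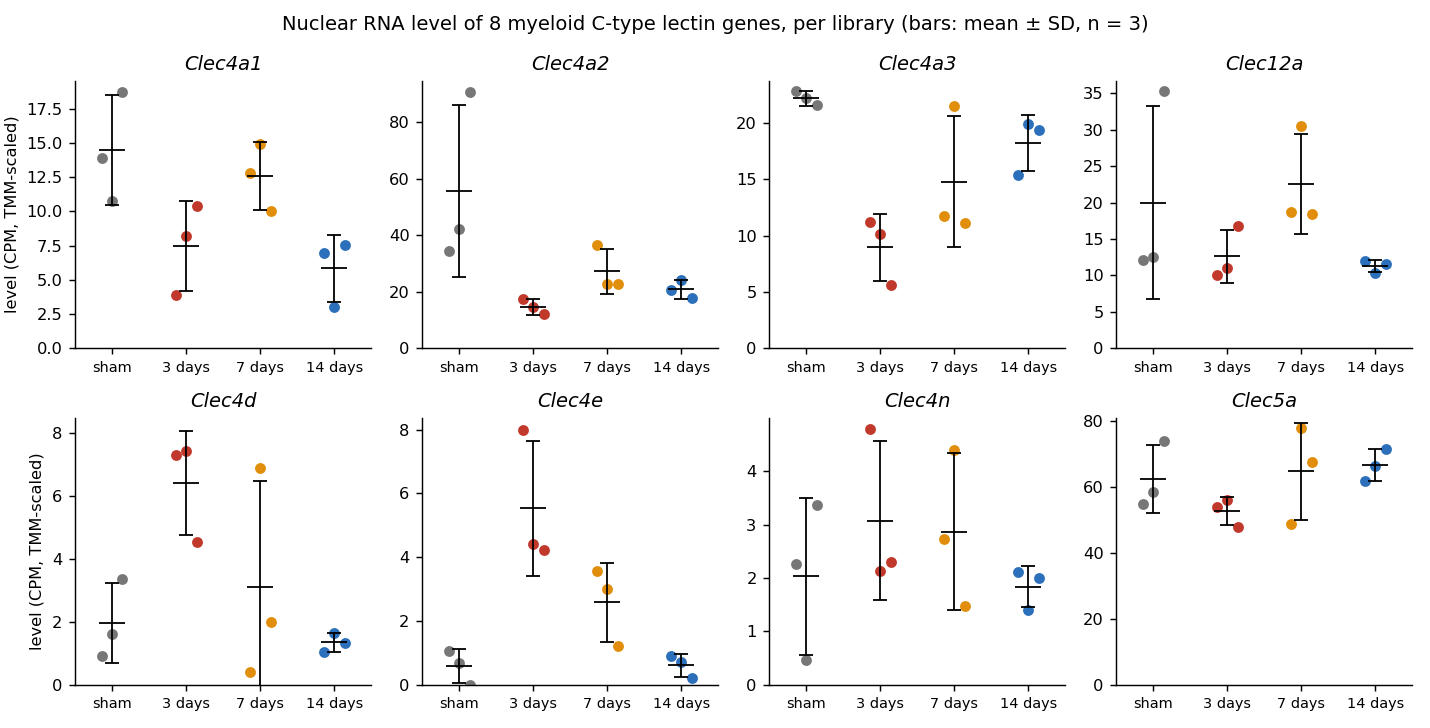
Level of each lectin gene in each library (points, CPM scaled by TMM) with group mean ± SD (bars, n = 3), from sham to 14 days after injury. Clec4e and Clec4d are highest at 3 days, Clec4a2 and Clec4a3 are lowest there, and a lower bar that would pass below 0 is not drawn past the axis.

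Genes of the DCIR group went the other way at 3 days. Clec4a2, the inhibitory receptor of the group, had 34.4, 42.1 and 90.7 CPM in sham replicates 2, 3 and 4, 17.5, 14.7 and 11.9 CPM at 3 days, 36.5, 22.5 and 22.9 CPM at 7 days, and 20.7, 24.3 and 17.6 CPM at 14 days. All 3-day and all 14-day libraries lay below all sham libraries, and a 7-day library overlapped sham. Clec4a2 fell 3.79-fold at 3 days against sham (log2 fold change -1.92 ± 0.34, edgeR BH-adjusted p = 0.00138) and 2.66-fold at 14 days (log2 fold change -1.41 ± 0.33, edgeR BH-adjusted p = 0.0157). At 7 days the difference from sham was -1.03 ± 0.33 and did not pass (edgeR BH-adjusted p = 0.0620). It passed in DESeq2 (adjusted p = 0.0231), with no low-count filter (edgeR BH-adjusted p = 0.00797) and without sham replicate 2 or 3 (edgeR BH-adjusted p = 0.0137 and 0.0450). Without sham replicate 4 it was -0.50 and did not pass (edgeR BH-adjusted p = 0.266).

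Sham replicate 4, the highest library for Clec4a2, did not carry the calls at 3 and 14 days. Without it the log2 fold change was -1.42 at 3 days (edgeR BH-adjusted p = 0.00118) and -0.89 at 14 days (edgeR BH-adjusted p = 0.0298). The 14-day call ended without 14-day replicate 1 (edgeR BH-adjusted p = 0.0673), without 14-day replicate 3 (edgeR BH-adjusted p = 0.0844) and in a fit of the 14-day and sham libraries alone (edgeR BH-adjusted p = 0.0592). Of the 50-base words in Clec4a2 exons, 6.15% also occur in Clec4a4 or Clec4b1, so a small part of its reads could belong to these neighbours, which averaged 0.765 and 0.424 CPM without TMM scaling.

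Clec4a3 had 22.9, 22.2 and 21.6 CPM in sham, 11.2, 10.2 and 5.57 CPM at 3 days, 11.7, 21.5 and 11.1 CPM at 7 days, and 15.4, 19.9 and 19.4 CPM at 14 days. Its sham libraries averaged 22.2 ± 0.651 CPM (SD, n = 3). Every library after injury lay below all of them in CPM, 7-day replicate 3 by a narrow margin (21.48 CPM against 21.56 CPM). In RPKM, 7-day replicate 3 (15.3 RPKM) and 14-day replicates 2 and 3 (15.9 and 15.3 RPKM) lay above sham replicate 4 (14.5 RPKM). Clec4a3 fell 2.51-fold at 3 days against sham (log2 fold change -1.33 ± 0.32, edgeR BH-adjusted p = 0.00907). The differences from sham at 7 days (-0.59 ± 0.31, edgeR BH-adjusted p = 0.237) and 14 days (-0.29 ± 0.31, edgeR BH-adjusted p = 0.587) did not pass. From 3 to 14 days Clec4a3 gained 1.04 ± 0.32 log2 units, short of the threshold (edgeR BH-adjusted p = 0.0590), though it passed in DESeq2 (adjusted p = 0.0188) and without sham replicate 4 (edgeR BH-adjusted p = 0.0301).

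Clec4a1 had 13.9, 10.7 and 18.8 CPM in sham, 3.87, 8.19 and 10.4 CPM at 3 days, 12.8, 15.0 and 10.0 CPM at 7 days, and 6.93, 3.04 and 7.57 CPM at 14 days. The 3-day and 14-day libraries lay below the sham libraries without overlap, and the 7-day libraries did not. None of its differences from sham passed in the edgeR fit of all libraries: -0.91 ± 0.39 at 3 days (edgeR BH-adjusted p = 0.110), -0.20 ± 0.38 at 7 days (edgeR BH-adjusted p = 0.776) and -1.29 ± 0.40 at 14 days (edgeR BH-adjusted p = 0.0558). The 14-day difference passed in DESeq2 (adjusted p = 0.0187), with no low-count filter (edgeR BH-adjusted p = 0.0186), and without sham replicate 3 or 3-day replicate 1 (edgeR BH-adjusted p = 0.0477 and 0.0459). Without sham replicate 4, its highest sham library, it was -1.08 and did not pass (edgeR BH-adjusted p = 0.0879).

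Clec12a and Clec5a did not pass in any comparison of the fit over all libraries. Clec12a, the inhibitory receptor that binds uric acid crystals, had 12.1, 12.6 and 35.3 CPM in sham, 10.0, 11.1 and 16.8 CPM at 3 days, 18.6, 30.5 and 18.5 CPM at 7 days, and 11.9, 10.3 and 11.6 CPM at 14 days. Its level in sham replicate 4 exceeded that of every other library. The log2 difference at 3 days against sham was -0.63 ± 0.38 with that library and 0.02 without it. At 7 days against sham it was 0.19 ± 0.38 (edgeR BH-adjusted p = 0.780), and 0.86 without that library. The 14-day libraries lay below all sham libraries by a narrow margin (-0.80 ± 0.39, edgeR BH-adjusted p = 0.208). Without sham replicate 4 that difference was -0.14. The 7-day libraries lay above the 3-day libraries (0.82 ± 0.38, edgeR BH-adjusted p = 0.158), and the 14-day libraries lay below the 7-day libraries (-0.996 ± 0.39, edgeR BH-adjusted p = 0.182). Without sham replicate 4 both passed (edgeR BH-adjusted p = 0.0277 and 0.0250), in a fit that tested 19468 genes. The difference between 14 and 7 days also passed with no low-count filter (edgeR BH-adjusted p = 0.0457) and in a fit of those groups alone (edgeR BH-adjusted p = 0.0292).

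Clec5a, the DAP12-coupled receptor, had 54.8, 58.3 and 73.9 CPM in sham, 54.0, 55.8 and 47.8 CPM at 3 days, 48.8, 77.7 and 67.5 CPM at 7 days, and 61.6, 66.4 and 71.5 CPM at 14 days. The groups overlapped sham at every time. Its differences from sham were -0.24 ± 0.20 at 3 days, 0.06 ± 0.20 at 7 days and 0.10 ± 0.20 at 14 days, on the log2 scale, the smallest errors of the 8 genes.

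Read across the set, 1 member rose and 2 fell at 3 days against sham, 3 of 8, where 20.0% of all genes tested were called (10.9% higher and 9.17% lower). The median log2 fold change of the 8 genes was -0.44, beside -0.03 for all genes tested. At 7 days 0 of 8 passed in edgeR, where 9.28% of all genes were called (4.61% higher and 4.67% lower). At an unadjusted p under 0.05 there were 2 members, and DESeq2 called 1, Clec4a2, and 2608 of 18451 genes. The shares of all genes here and in the next paragraph are edgeR calls at an adjusted p under 0.05. They give no background for counts by unadjusted p or by DESeq2. At 14 days 1 of 8 fell in edgeR and 2 in DESeq2, Clec4a1 and Clec4a2, where 9.82% of all genes were called (5.02% higher and 4.79% lower), and the edgeR count is a share near that of all genes.

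Between times, 0 of 8 members passed in edgeR for 7 against 3 days, where 13.4% of all genes were called (5.85% higher and 7.52% lower), with 3 members at an unadjusted p under 0.05 and 0 called by DESeq2. For 14 against 7 days 0 of 8 passed in edgeR, where 2.19% of all genes were called (1.35% higher and 0.835% lower). Again 3 members had an unadjusted p under 0.05, and DESeq2 called 0 of them and 1087 of 18451 genes. For 14 against 3 days 1 of 8 passed in edgeR, Clec4e, and 3 in DESeq2, Clec4a3, Clec4d and Clec4e, where 7.31% of all genes were called (2.17% higher and 5.14% lower). The test of any difference called Clec4a2 (edgeR BH-adjusted p = 0.00366), Clec4e (edgeR BH-adjusted p = 0.00715) and Clec4a3 (edgeR BH-adjusted p = 0.0286), 3 of 8, where 26.4% of all genes were called.

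**Figure D3:**
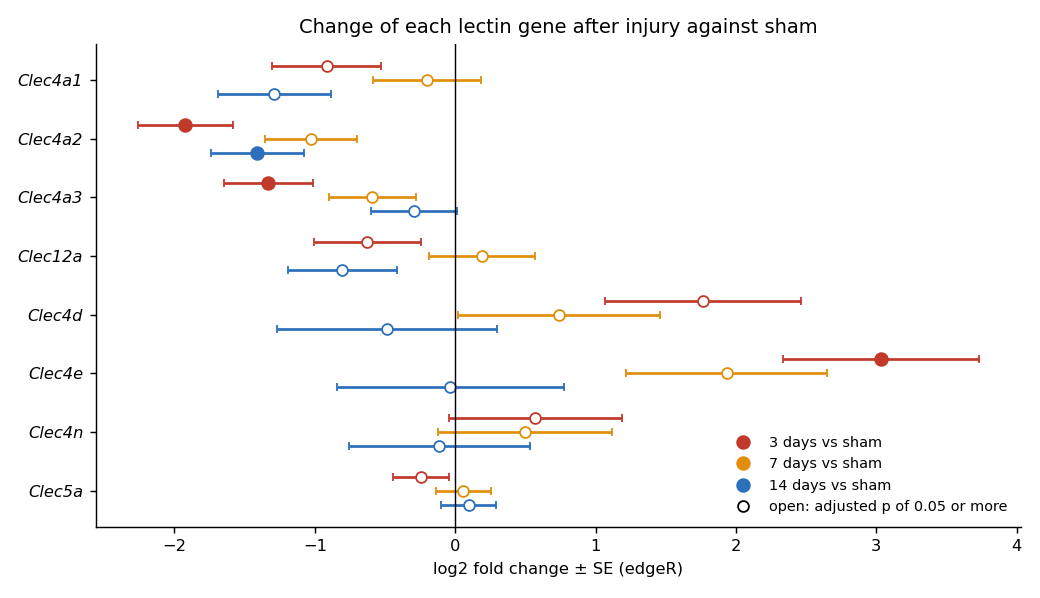
Log2 fold change ± SE of each lectin gene against sham at 3, 7 and 14 days (edgeR), with filled points where the adjusted p is under 0.05. Clec4e lies at 3.03, Clec4a2 at -1.92 and Clec4a3 at -1.33 at 3 days, and Clec5a stays within 0.24 of no change at each time.

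Markers of other myeloid cells moved in the same libraries. Beside the counts below, 10.9% of all genes tested rose and 9.17% fell at 3 days, and 5.02% rose and 4.79% fell at 14 days. At 3 days the 12 markers of monocyte-derived macrophages summed to 1410 to 1882 CPM, against 256 to 498 CPM in sham, and 6 of the 11 tested rose while 0 fell. Fn1 and Lyz2 made up most of that sum, with 1071 and 292 CPM at 3 days, against 36.3 and 46.3 CPM in sham. The sums were 423 to 755 CPM at 7 days and 906 to 1004 CPM at 14 days, and at 14 days 3 of the 11 rose (Fn1, Lyz2 and Cd44) and 2 fell (Vcan and F13a1). Without Fn1 and Lyz2 the other 10 markers summed to 317 to 364 CPM at 3 days and 203 to 251 CPM at 14 days. In sham they summed to 191, 196 and 378 CPM in replicates 2, 3 and 4. The 3-day and 14-day sums overlapped sham only through sham replicate 4, and lay above the other sham libraries. In bulk nuclei, fewer nuclei of a type and less RNA per nucleus cannot be told apart.

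The 9 markers of border-associated macrophages summed to 150 to 297 CPM at 3 days and 166 to 294 CPM at 14 days, against 398 to 872 CPM in sham, with 3 of the 7 tested lower at 3 days and 5 of 7 lower at 14 days. At 7 days the sums were 249 to 577 CPM. The 10 microglial markers summed to 3328 to 3969 CPM at 3 days, against 4985 to 6392 CPM in sham, with 4 of 10 lower. At 14 days they summed to 3671 to 4505 CPM, also below all sham libraries, with 3 of 10 lower. At 7 days the microglial sums were 4272 to 5600 CPM and overlapped sham. Clec4a2 was highest in sham replicate 4, the library with the highest border-associated macrophage, astrocyte and neuronal marker sums of all 12. Its neuronal markers summed to 2492 CPM, against 1060 and 1338 CPM in the other sham libraries, and its endothelial markers to 180 CPM, against 45.1 and 41.8 CPM. The part of these cell types in the lectin changes was not tested.

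Neutrophil markers other than Csf3r, which made up most of that list, summed to 8.88 to 21.6 CPM at 3 days, against 7.72 to 8.40 CPM in sham, and Ly6g and Elane had 0 counts in all sham libraries. Over the 3-day libraries Ly6g and Elane had 1 count each. Dendritic cell markers other than Siglech, which is also a microglial marker, summed to 95.7 to 112 CPM at 3 days, against 95.5 to 110 CPM in sham. Cd209a and Ccr7 each had 29 counts over the 3-day libraries and 0 in sham, as raw counts not scaled for depth. Of the 7 dendritic cell markers tested, Siglech among them, 1 rose and 2 fell at 3 days against sham. Of the 5 neutrophil markers tested 1 rose and 0 fell. Among all genes tested, 10.9% rose and 9.17% fell.

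**Figure D4:**
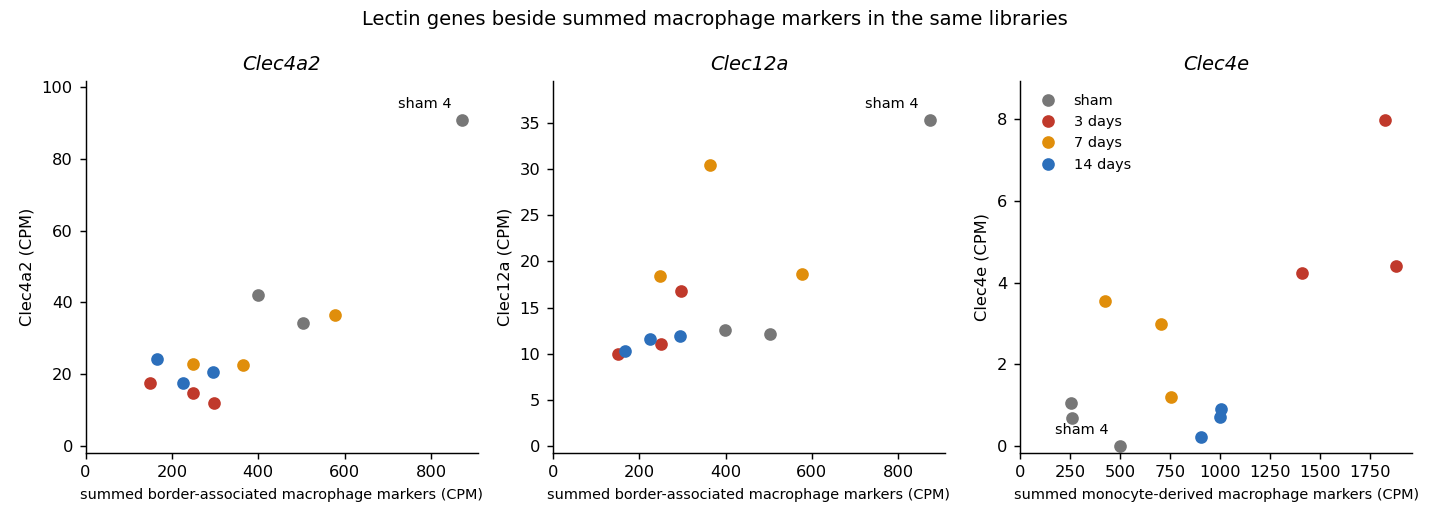
Clec4a2 and Clec12a (CPM, TMM-scaled) beside the summed markers of border-associated macrophages, and Clec4e beside those of monocyte-derived macrophages, in each of the 12 libraries. Sham replicate 4 has the highest border-associated macrophage sum, 872 CPM, and the highest Clec4a2 and Clec12a levels, and the 14-day libraries have monocyte-derived macrophage sums of 906 to 1004 CPM, most of it Fn1 and Lyz2, with Clec4e levels under 1 CPM.

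The signalling genes downstream of these receptors were followed in the same fit. Of 18 genes of the FcRgamma, DAP12 and Card9 route, 1 rose at 3 days, 1 at 7 days and 1 at 14 days. At 14 days 1 fell. Among all genes tested, 20.0%, 9.28% and 9.82% were called against sham at 3, 7 and 14 days. At an unadjusted edgeR p under 0.05 there were 5, 4 and 6 of the 18 genes at those times. Genes that did not pass are not shown to be unchanged. The gene that rose each time was Fgr, a Src-family kinase of myeloid cells, with 13.9, 22.4 and 42.8 CPM in sham, 51.9, 70.1 and 59.2 CPM at 3 days, 63.7, 55.5 and 90.7 CPM at 7 days, and 86.5, 95.8 and 106 CPM at 14 days. All injured libraries exceeded all sham libraries. The log2 fold changes against sham were 1.22 ± 0.32 at 3 days (edgeR BH-adjusted p = 0.0148), 1.43 ± 0.32 at 7 days (edgeR BH-adjusted p = 0.0134) and 1.89 ± 0.32 at 14 days (edgeR BH-adjusted p = 0.00224).

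Vav3, a guanine nucleotide exchange factor downstream of Syk, had 8.44, 8.42 and 6.68 CPM at 14 days, against 13.8, 14.2 and 24.1 CPM in sham, and fell (log2 fold change -1.13 ± 0.27, edgeR BH-adjusted p = 0.0165). Fcer1g, the adaptor of the receptors that include Clec4e, averaged 153 CPM at 3 days and 108 CPM in sham, with a log2 difference of 0.51 ± 0.21 that did not pass (edgeR BH-adjusted p = 0.0980). Tyrobp, the adaptor of Clec5a, averaged 132 CPM at 7 days and 45.7 CPM at 3 days, a log2 fold change of 1.53 ± 0.43 (edgeR BH-adjusted p = 0.0311), while its own receptor Clec5a differed by 0.30 ± 0.20 between those times and did not pass (edgeR BH-adjusted p = 0.314). Card9 averaged 38.8 CPM at 14 days and 89.5 CPM at 7 days, a log2 fold change of -1.21 ± 0.29 (edgeR BH-adjusted p = 0.0432). Over the same interval the log2 difference of Clec4e was -1.97 ± 0.72 and did not pass (edgeR BH-adjusted p = 0.158).

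Syk, the kinase shared by both adaptors, differed from sham by -0.31 ± 0.17 at 3 days and did not pass at any time. Of the 6 genes whose products bind ITIM receptors or restrain the same signals, 0 passed against sham in edgeR at 3, 7 or 14 days. Among all genes tested, edgeR called 20.0%, 9.28% and 9.82% at those times. At an unadjusted p under 0.05 there were 1, 0 and 0 of the 6 genes, and DESeq2 called 1 of them at 3 days. Dok3, an adaptor that restrains signalling downstream of ITAM receptors, averaged 6.37 CPM at 14 days and 20.8 CPM at 3 days, a log2 fold change of -1.70 ± 0.37 (edgeR BH-adjusted p = 0.0131).

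**Figure D5:**
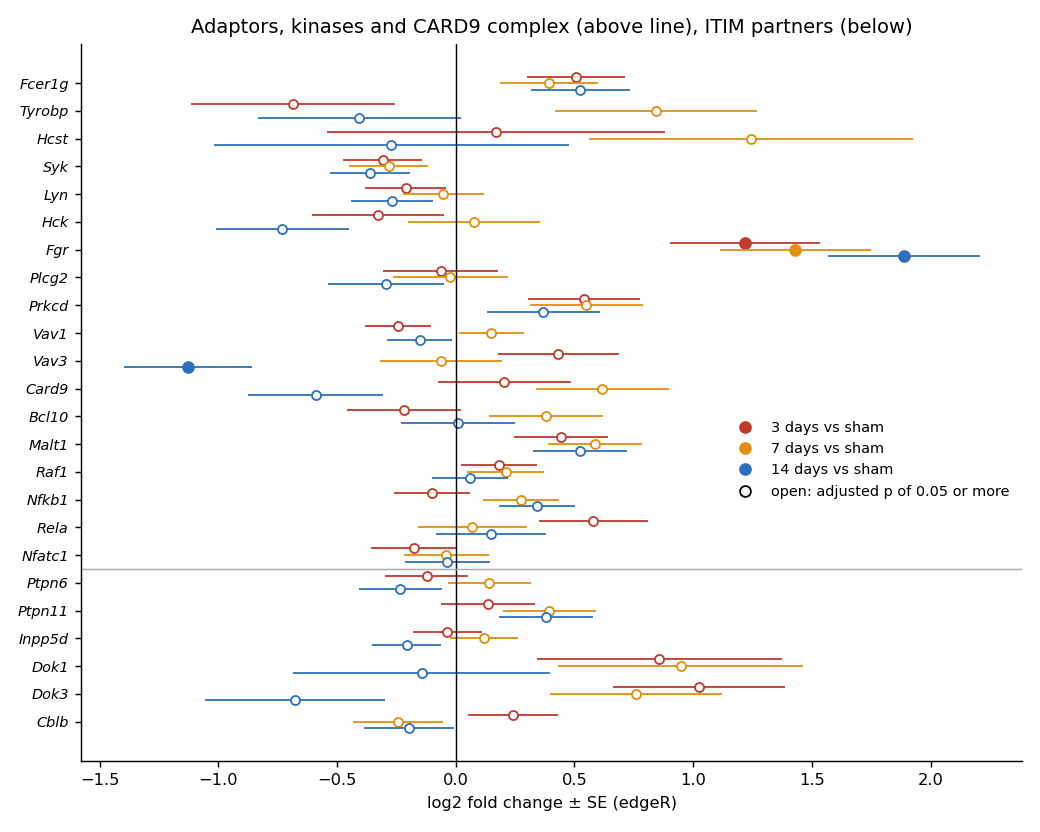
Log2 fold change ± SE against sham (edgeR) of 18 signalling genes, above the line, and of 6 genes whose products bind ITIM receptors, below it, at 3, 7 and 14 days. Filled points have an adjusted p under 0.05, and Fgr at the 3 times and Vav3 at 14 days are the filled ones.

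Several C-type lectin receptors outside the set changed. Of 28 listed, which summed to 592 CPM in sham replicate 4 and 348 and 318 CPM in the other sham libraries, 15 were tested. Of these, 6 rose and 4 fell at 3 days, 3 rose and 1 fell at 7 days, and 4 rose and 2 fell at 14 days. Among all genes tested, 20.0%, 9.28% and 9.82% were called against sham at 3, 7 and 14 days. Clec7a (Dectin-1), the beta-glucan receptor that signals to Syk without FcRgamma, had 16.5, 6.63 and 16.2 CPM in sham, 33.5, 31.7 and 14.0 CPM at 3 days, 44.6, 92.1 and 35.7 CPM at 7 days, and 94.9, 85.3 and 87.8 CPM at 14 days. It rose at 7 days (log2 fold change 2.12 ± 0.41, edgeR BH-adjusted p = 0.00650) and at 14 days (2.76 ± 0.41, edgeR BH-adjusted p = 0.000947), and 3 days overlapped sham (0.99 ± 0.41, edgeR BH-adjusted p = 0.0992). Between 3 and 14 days Clec7a rose by 1.77 ± 0.39 log2 units (edgeR BH-adjusted p = 0.0134), while Clec4e fell.

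Ly75, an endocytic receptor of dendritic cells, rose by 3.28 ± 0.60 log2 units at 3 days (edgeR BH-adjusted p = 0.00175). Mgl2, a galactose-binding lectin of macrophages, averaged 2.89 CPM at 3 days and 19.6 CPM in sham (log2 fold change -2.74 ± 0.47, edgeR BH-adjusted p = 0.00121), and was also lower at 7 days (-1.74 ± 0.45) and at 14 days (-1.96 ± 0.46). Mrc1, the mannose receptor, which is also a border-associated macrophage marker, averaged 83.6 CPM at 3 days and 262 CPM in sham (log2 fold change -1.64 ± 0.42, edgeR BH-adjusted p = 0.0143).

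Cytokine genes that the Card9 route can switch on moved in both directions. Of 12 listed, which summed to 233 CPM in sham replicate 4 and 137 and 148 CPM in the other sham libraries, 5 were tested. Tnf averaged 19.1 CPM at 3 days and 2.59 CPM in sham (log2 fold change 2.87 ± 0.33, edgeR BH-adjusted p = 5.73e-05), and Ccl3, a chemokine, 62.9 CPM at 3 days and 11.5 CPM in sham (2.45 ± 0.23, edgeR BH-adjusted p = 1.08e-05), and both also rose at 7 and 14 days. Il6 averaged 0.77 CPM at 3 days and 12.6 CPM in sham (log2 fold change -4.08 ± 0.44, edgeR BH-adjusted p = 3.30e-05) and was lower at 7 and 14 days too. Il1a fell at 3 days (-1.25 ± 0.25, edgeR BH-adjusted p = 0.00290), and Il1b did not pass against sham in edgeR at any time, while DESeq2 called it higher at 7 days (log2 fold change 1.05, adjusted p = 0.0279).

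Likeness of pattern was measured as the root mean square difference, over the 12 libraries, of log2 CPM after each gene was centred on its own mean, with genes of at least 5 CPM on average as candidates (11177, or 11178 for the members under that level). It is a description, in which all genes share the libraries and their depth. The genes nearest to Clec4e were Mcm5 (0.536), Ier3 (0.559) and Incenp (0.585), and those nearest to Clec4d were Kpna2 (0.584), Ska3 (0.616) and H2-Eb1 (0.619), while the median distance over all candidates was 1.345 for Clec4e and 1.14 for Clec4d. Clec4a2 was nearest to Agmo (0.245), St3gal6 and P2ry13 (0.252 each), the last being a nucleotide receptor of microglia, which averaged 72.2 CPM at 3 days and 303 CPM in sham. Clec4a3 was nearest to Plpp1 (0.205), Clec4a1 to Col27a1 (0.379), Clec4n to BE692007 (0.275), Clec12a to Casz1 (0.192) and Clec5a to Zfp324 (0.110).

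Within the set, the 2 genes that differed most in pattern were Clec4a2 and Clec4e, at a distance of 1.87, and the nearest pair was Clec4a1 and Clec12a, at 0.463. Clec4e was the farthest member for all the others except Clec4d, whose farthest member was Clec4a2, at 1.51. Clec4d and Clec4e, adjacent on the chromosome, were each nearest within the set to Clec4n, at 0.996 and 1.23.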

How the data were processed

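Per the labels' protocols, nuclear RNA was extracted from GFP-captured nuclei and passed through isothermal SPIA amplification. The authors deposited whole-number counts per Ensembl gene, and a deposited RPKM table with gene symbols. The submitters' processing notes name featureCounts 1.4.6-p3, GRCm38 and mm10. How reads were aligned, whether strand was used and how multiply matching reads were counted is not given in the sources used here. Reads without molecular identifiers are not independent molecules, so limits from counts cover counting error only.

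Deposited counts were fitted with edgeR 4.0.16 (R 4.3.3) after filterByExpr and TMM scaling, by quasi-likelihood with 1 mean per group and 12 libraries in the fit. P-values were adjusted by Benjamini-Hochberg across 18451 genes, and 0.05 was the threshold. SE were derived as the size of the log2 fold change over the root of its F statistic. Gene levels in CPM carry TMM factors, except those of Clec4a4 and Clec4b1. The fit was tested on simulated data.

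Alternatives were scaling by median ratios, DESeq2 1.42.0, omission of the low-count filter, a stricter one (1 CPM or more in at least 3 libraries, mean 5 CPM or more), a term for replicate number, fits restricted to the 2 groups compared, limma 3.58.1 on log2 RPKM (pseudocount 1 or 0.1) and omission of each library. Exons and shared 50-base words came from GENCODE transcripts of GRCm38. Figures were drawn with matplotlib 3.10.9 under Python 3.11.15.

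The lectin genes and all gene lists were chosen with earlier results of these data known. Beside the 8 members, genes were eligible to be named if they were among up to 8 tested genes of a list with the smallest p for any difference, any signalling gene, the 3 most abundant markers of a cell type or those at 0 in a group, and the 3 genes nearest to a member in pattern. F13a1 stands in both macrophage lists, and Siglech marks both microglia and dendritic cells. At 3 days against sham, 10.9% of all genes tested rose and 9.17% fell. Of markers of other tissue cells, 8 of 8 endothelial markers rose, 2 of 8 astrocyte markers rose and 5 of 8 neuronal markers fell. Of 8 oligodendrocyte markers 1 rose and 1 fell. Endothelial markers summed to 247 to 615 CPM at 3 days, against 41.8 to 180 CPM in sham. Their sums were 49.2 to 63.0 CPM at 7 days and 379 to 399 CPM at 14 days, and their part in the lectin changes was not tested.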

Additional observations from a re-analysis of the deposited data

Results flagged for a closer look

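The effect of injury on Clec4e differed between times in the direct test. Clec4e had 0.90, 0.70 and 0.22 CPM at 14 days, against 7.97, 4.40 and 4.23 CPM at 3 days, with no overlap between the unpaired libraries. The log2 fold change was -3.07 (edgeR quasi-likelihood test, adjusted p = 0.0151). This call was kept in 15 of the 19 alternative fits that tested Clec4e. It was lost when 3-day replicate 1 or any of the 14-day libraries was left out. Monocyte-derived macrophage markers summed to 906 to 1004 CPM at 14 days, against 1410 to 1882 CPM at 3 days (203 to 251 CPM against 317 to 364 CPM without Fn1 and Lyz2), and their part in this difference was not tested.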

How the results depend on the processing

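At 3 days against sham, the calls of Clec4a2, Clec4a3 and Clec4e were kept in 20 of 20, 20 of 20 and 19 of 19 alternative fits that tested them, with edgeR, limma or DESeq2 adjusted p of at most 0.0138, 0.0475 and 0.0323. The call of Clec4a2 at 14 days against sham was kept in 17 of 20 fits, and that of Clec4e for 14 against 3 days in 15 of 19. The stricter filter did not test Clec4d, Clec4e and Clec4n.

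The counts of members called in the other comparisons moved, and the cause was not tested. With no low-count filter they were 1 at 7 days against sham, 2 at 14 days against sham, 1 for 7 against 3 days, 1 for 14 against 7 days, 3 for 14 against 3 days and 6 for any difference. With DESeq2 they were 1 at 7 days against sham, 2 at 14 days against sham, 3 for 14 against 3 days and 5 for any difference. With only the 2 groups compared they were 0 at 14 days against sham, where 5 members were tested, and 1 for 7 against 3 days. They were 1 for 14 against 7 days, where 6 members were tested, and 4 for 14 against 3 days. Where all-gene calls moved in these fits, they stand at the end beside the genes tested. In the alternative fits with no library left out, all-gene calls ran from 172 to 2889 at 7 days against sham. At 14 days against sham they ran from 925 to 2822. They ran from 1694 to 3548 for 7 against 3 days and 218 to 1827 for 14 against 7 days. For 14 against 3 days they ran from 1007 to 4886, and for any difference from 3734 to 7064. For 14 against 3 days limma on log2 RPKM called 2 members with either pseudocount, and the stricter filter, which left Clec4e untested, 0. Leaving out each library gave 0 to 1 at 7 days against sham, 0 to 2 at 14 days against sham, 0 to 2 for 7 against 3 days, 0 to 1 for 14 against 7 days, 0 to 3 for 14 against 3 days and 2 to 5 for any difference.

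Libraries with the same replicate number in the labels were no more alike than others. The 13 same-numbered pairs had correlations of deviations from -0.389 to 0.087 and 41 other pairs from -0.232 to 0.326, over 13458 genes. Deviations from means of 3 libraries cannot exclude a pairing. With the replicate block, 1 member (Clec4e) passed for 14 against 7 days, all-gene calls there were 1608 in place of 404, and the other member counts stayed within 1.5 times of their values.

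Directions that reversed all belonged to differences that did not pass. At 14 days against sham, limma gave Clec4e 0.019 and 0.17 and Clec4n 0.11 and 0.31 with pseudocounts of 1 and 0.1. With libraries left out in turn, log2 differences ran at 3 days against sham from -0.92 to 0.024 for Clec12a. They ran at 7 days against sham from -0.099 to 0.23 for Clec5a, -0.092 to 0.86 for Clec12a, -0.40 to 0.010 for Clec4a1 and -0.52 to 1.34 for Clec4d. They ran at 14 days against sham from -0.50 to 0.73 for Clec4e, -0.56 to 0.34 for Clec4n, -0.0044 to 0.22 for Clec5a and -0.89 to 0.10 for Clec4d. They ran for 7 against 3 days from -0.52 to 0.35 for Clec4n, for 14 against 7 days from -0.13 to 0.18 for Clec5a and -1.71 to 0.027 for Clec4d, and for 14 against 3 days from -0.28 to 0.099 for Clec12a.

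Calls over all genes moved too. Fits of the 2 groups alone called 1817 of 17150 genes at 3 days against sham (3695 of 18451 in the fit of 4 groups). They called 172 of 16744 at 7 days (1712) and 925 of 16162 at 14 days (1811). For 14 against 7 days they called 1827 of 16973 (404), and for 14 against 3 days 4886 of 17076 (1349). With no filter 34125 genes were tested. Of these, 2889 were called at 7 days, 2822 at 14 days, 1562 for 14 against 7 days and 2045 for 14 against 3 days. Of 18451 genes, DESeq2 called 2608 at 7 days against sham and 1087 for 14 against 7 days. Of the same number, limma called 1137 and 1069 at 7 days against sham and, with a pseudocount of 0.1, 218 for 14 against 7 days. With a library left out the counts ran from 1866 to 4152 at 3 days, 827 to 3065 at 7 days and 701 to 2793 at 14 days against sham, from 564 to 4539 for 7 against 3 days, 1 to 1774 for 14 against 7 days and 435 to 2627 for 14 against 3 days, and from 2926 to 6701 for any difference.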
